A study of Rattus norvegicus with 12 samples.

Results

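The genes described here are 40 genes for hydrolases, cofactors and membrane proteins of the lysosome, with the cathepsin proteases left out. They were chosen by name, with earlier results of these data known. A gene counted as a member where the symbol of a probe set in the array's annotation was on the list. When several probe sets carried a symbol, the one with the highest mean over all arrays stood for the gene. By this rule 38 of the 40 genes were measured, among 14218 genes with a probe set, and all 38 were among the 13253 genes tested. Galns and Sgsh, a pair of sulfatases of glycosaminoglycan breakdown, had no probe set with their symbol in the annotation used here.

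The RNA came from the cortex of 12 male Fischer 344 (F344) rats, 6 young and 6 aged, with 1 Affymetrix array per rat. The labels give the young rats as 3 to 5 months old and the aged rats as 21 to 23 months old. The labels name no genetic change or drug in either group. All rats carried an implanted transmitter for recording brain waves and muscle activity, and all were trained in a water maze before the brain was taken. The sample titles and the study's methods name parietal cortex, whereas the labels also hold a tissue entry that reads frontal cortex. The signals are on a linear scale, and log2 fold changes are differences between the group means of log2 signal, aged minus young. As bulk tissue was measured, a change in the number of cells of a type cannot be told apart from a change in the RNA per cell.

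The lysosome is the acidic compartment in which cells degrade lipids, sugar chains and proteins taken up from outside or delivered by autophagy. Most of its hydrolases work at the ends of chains, each removing 1 kind of sugar, sulfate or fatty chain, so that loss of a single enzyme leaves its substrate undegraded and gives a lysosomal storage disease, often with damage to the brain. The membrane proteins line the compartment, protect it from its own enzymes and carry ions and products across. Many lysosomal genes have in their promoters the CLEAR element, built around the letters CACGTG, to which the transcription factor TFEB and its relatives bind.

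Across the 38 genes, most were slightly higher in the aged cortex, and none passed the test over all genes. The mean was higher in aged rats for 33 genes (86.8%), whereas 56.9% of all genes tested had a higher mean in aged rats. The median log2 fold change of the 38 genes was 0.14, and over all genes it was 0.02. At an unadjusted p up to 0.05 from limma, a moderated linear model fitted to every gene, 12 of the 38 genes (31.6%) were higher in aged rats, beside 6.49% of all genes. None of the 38 was lower at that threshold, beside 2.62% of all genes. As the list was made with earlier results of these data known, these shares are a description and not independent support. After Benjamini-Hochberg adjustment over all genes, none of the 38 was under 0.05, beside 0.0528% of all genes, and the smallest adjusted p among them was 0.218, for Hexa. Every aged rat exceeded every young rat for 2 of the 38 genes, Hexa and Laptm4b, beside 0.536% of all genes, and every aged rat fell below every young rat for none, beside 0.241%.

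The counts depended on how the arrays were scaled. The median signal of an array lay between 162 and 172 in the young group and between 168 and 194 in the aged group, with the highest value in aged rat 6 and with aged rats 1, 2 and 4 inside the young range, although the trimmed mean of every array was 500.1. Aged rat 2 had the lowest median correlation with the other arrays, 0.947, and the other 11 rats had 0.9515 to 0.957. With each array centred on its median, 27 of the 38 genes were higher in aged rats, 4 of them at an unadjusted p up to 0.05 (Cd63, Hexa, Lamp2 and Naaa), 1 gene, Scarb2, was lower at that threshold, and the median log2 fold change was 0.07. Under the same centring the median over all genes was -0.05, and 37.8% of all genes were higher. The split of all genes at an unadjusted p up to 0.05 went from 860 higher and 347 lower to 413 higher and 884 lower. With quantile normalization it was 586 higher and 470 lower over all genes, and 12 higher and 1 lower (Scarb2) among the 38.

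**Figure D1:**
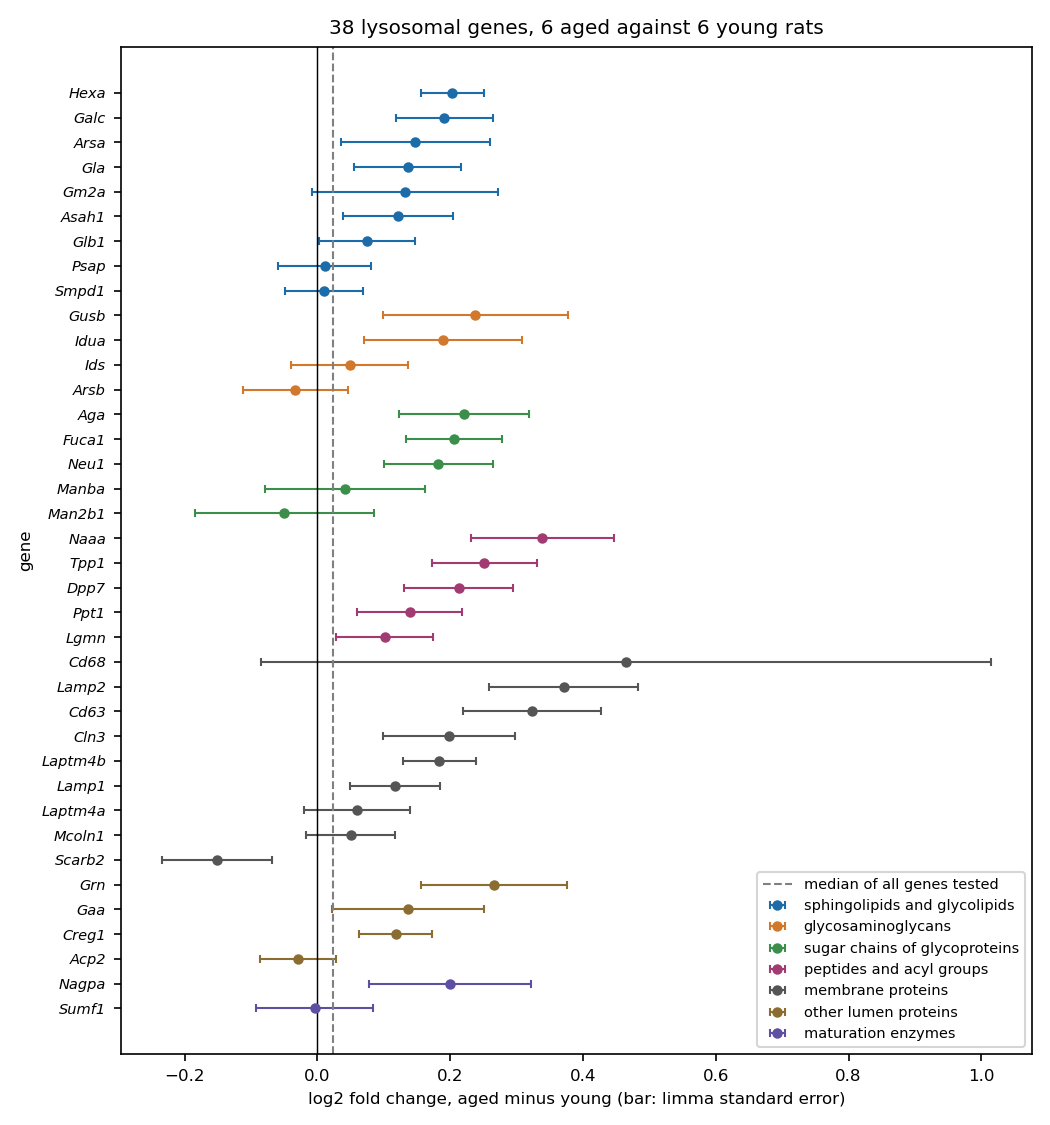
Log2 fold change, aged minus young, for each of the 38 lysosomal genes (points) with its limma standard error (bars), coloured by the substrate or role of the protein. The dashed line is the median of all genes tested, 0.02, and 33 of the 38 points lie above 0 (27 where each array is centred on its median), from Smpd1 at 0.01 to Cd68 at 0.46.

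Promoter sequences of the members were read from RefSeq (rat build GRCr8), with 250 bases before and 50 bases after the annotated start. The table used here held 33 of the 40 members. The 6 letters CACGTG, which read the same on both strands, stood in 11 of these 33 promoters (33.3%) and in 6.42% of 33469 promoters in the table, 7.02% of those of protein-coding genes and 8.83% of those of genes tested here. The 8 letters TCACGTGA, which also read the same on both strands and contain the 6, stood in 5 of the 33 (15.2%) and in 0.777%, 1.02% and 1.43% of those groups of promoters. The holders of the 8 letters were Lamp1, Cln3, Mcoln1, Galc and Sumf1. Nagpa, Cd63, Gaa, Glb1, Idua and Sgsh held the 6 letters alone. Of the genes higher at an unadjusted p up to 0.05, 10 had a promoter in the table and 2 of them, Galc and Cd63, held CACGTG. Of the 21 other tested members with a promoter, 8 held it. The presence of the letters is a description of these windows, and binding was not measured. The stretches are given for every member with the longer form of the element before the start, whatever its age difference, and the capitals mark TCACGTGA. The Mcoln1 match lies after the annotated start and is not printed.
Lamp1, chr16:83075065-83075159, minus strand: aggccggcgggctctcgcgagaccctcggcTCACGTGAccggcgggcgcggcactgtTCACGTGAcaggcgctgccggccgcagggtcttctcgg
Cln3, chr1:190597931-190597998, minus strand: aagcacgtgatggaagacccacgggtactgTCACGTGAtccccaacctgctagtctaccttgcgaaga
Galc, chr6:123245560-123245610, minus strand: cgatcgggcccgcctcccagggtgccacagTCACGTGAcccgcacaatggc
Sumf1, chr4:142716713-142716770, minus strand: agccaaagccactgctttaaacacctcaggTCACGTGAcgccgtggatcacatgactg

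In the Lamp1 stretch the 8 letters occur in 2 copies, starting 66 and 39 bases before the start, and in Galc they begin 21 bases before it. Among the holders of the 8 letters the log2 fold change was -0.0038 for Sumf1, 0.05 for Mcoln1, 0.12 for Lamp1, 0.19 for Galc and 0.20 for Cln3, so they lay both near 0 and above the median of the members.

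All 9 genes for breakdown of sphingolipids and glycolipids had a higher mean in aged rats (7 of 9 with arrays centred on their median, Psap and Smpd1 then being lower). Their log2 fold changes ranged over 0.01 to 0.20, and the median was 0.13. Of these, Hexa and Galc were higher at an unadjusted p up to 0.05. Hexa encodes the alpha subunit of beta-hexosaminidase, which takes the terminal sugar from GM2 ganglioside. Its signal in young rats 1 to 6 was 741, 690.5, 697, 717, 755 and 766, and in aged rats 1 to 6 it was 865, 801, 837, 803, 843 and 878. The groups did not overlap, and the distance between the lowest aged and the highest young rat was a little larger than the SD within the aged group (31.6, n = 6). The fold change came to 1.15 (log2 fold change 0.20, SE 0.048, adjusted p = 0.218 from limma). The two-sided exact permutation p for Hexa was 0.00217, the smallest that the 924 splits of 6 against 6 rats allow.

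Galc encodes galactosylceramidase, which degrades galactosylceramide, the chief glycolipid of myelin. Its signal was 377, 428, 413, 429, 444 and 444 in young rats 1 to 6 and 431, 439, 514, 493.5, 468 and 557 in aged rats 1 to 6. Aged rats 1 and 2 lay inside the young range and the other 4 above it. On average the aged signal was 1.14-fold the young signal (log2 fold change 0.19, SE 0.073, adjusted p = 0.477, exact permutation p = 0.0217, n = 6 each). The remaining glycolipid genes were closer to the spread between rats. Arsa, which removes sulfate from the myelin lipid sulfatide, had a log2 fold change of 0.15, Gla (alpha-galactosidase) 0.14, the GM2 activator Gm2a 0.13, and acid ceramidase Asah1 0.12. A further probe set gave 0.36 for Asah1 and 0.0017 for Gla. Glb1, the beta-galactosidase that starts on GM1 ganglioside, was at 0.07. The lowest values belonged to Psap, the precursor of the saposin cofactors, and Smpd1, acid sphingomyelinase, both at 0.01, and their sign changed in 6 and 7 of the 28 alternative settings run for each.

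The genes for glycosaminoglycan breakdown showed no gene past an unadjusted p of 0.05 among the 4 measured. Their log2 fold changes were 0.24 for Gusb (beta-glucuronidase), 0.19 for Idua (alpha-L-iduronidase), 0.05 for Ids (iduronate sulfatase), which was -0.02 with arrays centred on their median, and -0.03 for Arsb (arylsulfatase B), whose other probe set was at 0.05. The Gusb signal was 166, 195, 171, 159, 199 and 212 in young rats 1 to 6 and 211, 142, 219.5, 246, 256 and 242 in aged rats 1 to 6. Aged rat 2 was below every young rat, aged rat 1 was inside the young range, and the other 4 aged rats were above it. The difference did not pass (SE 0.14, adjusted p = 0.643, exact permutation p = 0.123, n = 6 each). Without aged rat 2 the log2 fold change of Gusb was 0.36 (adjusted p = 0.204), and Gusb and Idua were then among the genes at an unadjusted p up to 0.05.

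Among the 5 genes that trim sugar chains from glycoproteins, 4 had a higher mean in aged rats (Manba no longer with arrays centred on their median), and Aga, Fuca1 and Neu1 were higher at an unadjusted p up to 0.05. Fuca1, the alpha-L-fucosidase, had signals of 1081, 1210.4, 1077, 1206, 975 and 1091 in young rats 1 to 6. In aged rats 1 to 6 its signals were 1375, 1302, 1210.5, 1193, 1161 and 1411. Aged rats 4 and 5 fell inside the young range, and aged rat 3 lay just above the highest young rat. The fold change was 1.15 (log2 fold change 0.20, SE 0.072, adjusted p = 0.438, exact permutation p = 0.0173, n = 6 each). Aga, which cleaves the bond between asparagine and the first sugar, had a mean signal of 492 ± 58.0 in the young and 573.5 ± 66.3 in the aged group (SD, n = 6 per group), with a log2 fold change of 0.22. Neu1, the lysosomal sialidase, had 271 ± 27.3 and 308 ± 27.7 (SD, n = 6 per group), with a log2 fold change of 0.18. A second, dimmer Neu1 probe set gave 0.09. With the mean of the probe sets or with every probe set tested apart Neu1 was no longer at an unadjusted p up to 0.05. The same held with quantile normalization, with arrays centred on their median and under some of the variance and block settings. The mannosidase genes lay near 0, with Manba at 0.04 and Man2b1 at -0.05, and without aged rat 2 they were at 0.14 and 0.07.

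The 5 genes for enzymes that act on peptides or acyl groups had the highest median of the 7 classes, 0.21, and all 5 were higher in aged rats. Tpp1, Naaa and Dpp7 were higher at an unadjusted p up to 0.05. Tpp1 encodes tripeptidyl peptidase, which removes tripeptides from the amino end of proteins and is lost in a childhood form of neuronal ceroid lipofuscinosis. Its signals were 1020.5, 1023, 997, 1042, 898 and 820.4 in young rats 1 to 6 and 1303, 1164, 1013, 1176, 1075.5 and 1171 in aged rats 1 to 6. Aged rat 3 was the only aged rat inside the young range. The fold change came to 1.19 (log2 fold change 0.25, SE 0.079, adjusted p = 0.371, exact permutation p = 0.00866, n = 6 each).

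Naaa encodes an amidase that hydrolyses N-acylethanolamines such as palmitoylethanolamide. Its signal was 241, 365, 247, 285, 274 and 289 in young rats 1 to 6 and 362, 312, 381, 366, 312 and 409.8 in aged rats 1 to 6. Young rat 2 stood apart from the other 5 young rats, all of which lay below every aged rat. On average the aged signal was 1.26-fold the young signal (log2 fold change 0.34, SE 0.11, adjusted p = 0.371, exact permutation p = 0.0152, n = 6 each). Dpp7, a dipeptidyl peptidase, had signals of 652, 702.5, 784, 731, 610.4 and 613 in young rats 1 to 6 and 679, 833, 770, 891, 794.5 and 771.5 in aged rats 1 to 6. Aged rats 2, 4 and 5 exceeded the highest young rat. The fold change was 1.16 (log2 fold change 0.21, SE 0.082, adjusted p = 0.481, exact permutation p = 0.0281, n = 6 each). Ppt1, which strips palmitate from proteins and is lost in infantile neuronal ceroid lipofuscinosis, had a log2 fold change of 0.14, and Lgmn, the asparaginyl protease legumain that matures other lysosomal proteases, 0.10.

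**Figure D2:**
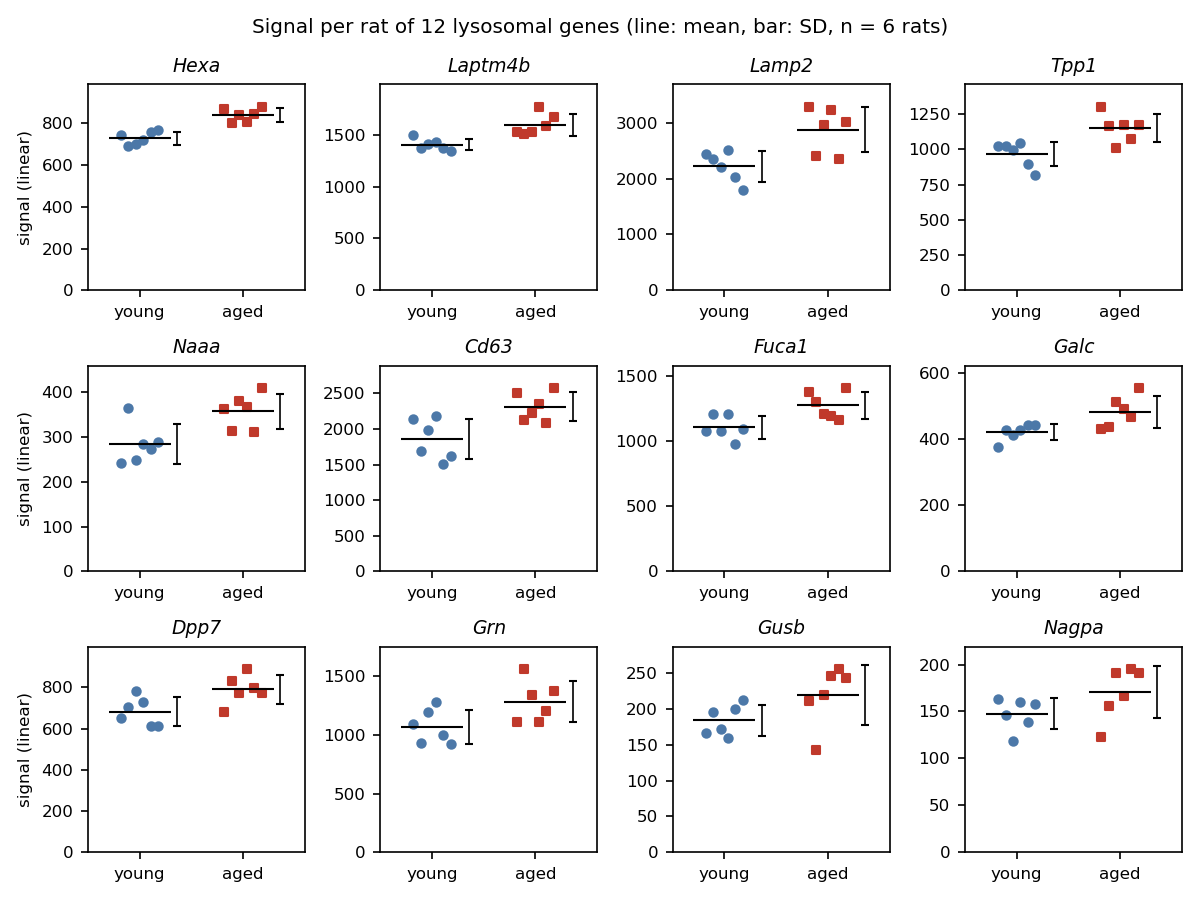
Signal on a linear scale in each of 6 young rats (blue circles) and 6 aged rats (red squares) for the 10 members with the smallest p and the leading gene of each remaining class, with the group mean (line) and SD (bar). The groups are separate for Hexa and Laptm4b and overlap for the other 10 genes.

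Of the 9 membrane protein genes, 8 had a higher mean in aged rats (without Laptm4a and Mcoln1 where arrays were centred on their median), with a median log2 fold change of 0.18, and Lamp2, Cd63 and Laptm4b were higher at an unadjusted p up to 0.05. Laptm4b encodes a small protein with several membrane spans. Its signal was 1494, 1370.5, 1408, 1431, 1368 and 1346 in young rats 1 to 6 and 1521, 1503.5, 1524.5, 1770.4, 1584.5 and 1668 in aged rats 1 to 6. The groups did not overlap, although aged rat 2 was only just above young rat 1. The fold change came to 1.14 (log2 fold change 0.18, SE 0.055, adjusted p = 0.354, exact permutation p = 0.00217, n = 6 each).

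Lamp2, a heavily glycosylated protein that lines the membrane and, in 1 of its splice forms, takes part in chaperone-mediated autophagy, had the largest difference of the 12 genes higher at an unadjusted p up to 0.05. Its signals were 2435, 2347, 2198, 2504, 2022 and 1793 in young rats 1 to 6 and 3286, 2397, 2954, 3229, 2348 and 3019 in aged rats 1 to 6. Aged rats 2 and 5 lay inside the young range, and the other 4 lay well above it. On average the aged signal was 1.29-fold the young signal (log2 fold change 0.37, SE 0.11, adjusted p = 0.354, exact permutation p = 0.0173, n = 6 each). The second Lamp2 probe set gave a log2 fold change of 0.18, in the same direction.

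Cd63, a tetraspanin of late endosomes and lysosomes, had signals of 2142, 1697, 1989, 2188, 1513 and 1625 in young rats 1 to 6 and 2502, 2129.7, 2224, 2348, 2079 and 2581 in aged rats 1 to 6. Aged rats 2 and 5 were again inside the young range. The fold change was 1.25 (log2 fold change 0.32, SE 0.10, adjusted p = 0.382, exact permutation p = 0.0152, n = 6 each). Cln3, whose loss causes the juvenile form of neuronal ceroid lipofuscinosis, had a log2 fold change of 0.20 with a dim signal, 97.4 ± 14.2 for the young group and 111 ± 7.48 for the aged group (SD, n = 6 per group). Lamp1, the partner of Lamp2, was at 0.12 and was measured well by 1 probe set, since its other probe sets, at 0.61 and 1.03, had mean signals of 36.8 and 10.2. Laptm4a was at 0.06 and the calcium channel Mcoln1 at 0.05. Scarb2, the membrane receptor that carries glucocerebrosidase to the lysosome, was the member with the lowest value, -0.15 (SE 0.083, adjusted p = 0.611), with mean signals of 221 ± 19.6 for young and 199 ± 20.9 for aged (SD, n = 6 per group).

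Cd68, a membrane protein of macrophages and microglia, had the largest log2 fold change of the 38 genes, 0.46, and the largest error (SE 0.55, adjusted p = 0.854). It was the only member below the cutoff of 4.3 on the log2 scale on any array. Its signal was 36.8, 38.7, 26.6, 45.4, 12.1 and 45.7 in young rats 1 to 6 and 88.4, 8.6, 43.6, 52.1, 39.8 and 95.2 in aged rats 1 to 6. Aged rats 1 and 6 were far above the rest, and aged rat 2 was the lowest of all 12. Single rats decided its value. Without aged rat 2 its log2 fold change was 0.93 and it was among the genes at an unadjusted p up to 0.05. It was 0.26 where aged rat 1 was left out and 0.27 with quantile normalization, both below Lamp2 in the same fits (0.33 and 0.39).

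Of the 4 other proteins of the lumen, Grn was higher at an unadjusted p up to 0.05. Grn encodes progranulin, a secreted and lysosomal protein that is cleaved into granulins. Its signals were 1088, 928, 1195, 1276, 997 and 921 in young rats 1 to 6 and 1108, 1564, 1343, 1109, 1204 and 1374.5 in aged rats 1 to 6. Aged rats 2, 3 and 6 lay above the young range, and the others inside it. The fold change came to 1.20 (log2 fold change 0.27, SE 0.11, adjusted p = 0.506, exact permutation p = 0.0455, n = 6 each). Gaa, the alpha-glucosidase that degrades glycogen, had a log2 fold change of 0.14, Creg1, a secreted and lysosomal glycoprotein, 0.12 (-0.04 by its other probe set), and the acid phosphatase Acp2 -0.03.

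Neither of the 2 maturation enzymes was past an unadjusted p of 0.05. Nagpa, the Golgi enzyme that uncovers the mannose 6-phosphate tag by which hydrolases are sorted to lysosomes, had signals of 163, 147, 119, 160, 139 and 157.5 in young rats 1 to 6. In aged rats 1 to 6 they were 123, 156, 190.5, 166, 196 and 191.5. Aged rats 3 to 6 lay above the young range, and aged rats 1 and 2 inside it (log2 fold change 0.20, SE 0.12, adjusted p = 0.659, exact permutation p = 0.139, n = 6 each). Sumf1, which activates all sulfatases by converting a cysteine of their active site, had mean signals of 368 ± 45.7 for young and 365.5 ± 30.9 for aged (SD, n = 6 per group), a difference far smaller than the spread between rats.

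Not all of the 12 genes at an unadjusted p up to 0.05 stood there independently of single rats. Each of the 12 rats was left out in turn. Hexa, Laptm4b, Lamp2, Tpp1, Naaa, Cd63 and Fuca1 (7 genes) remained at that threshold in all 12 fits. The other 5 dropped out at least once, Neu1 in 10 of the fits, Aga in 9, Grn in 6, Dpp7 in 3 and Galc in 2. Galc was lost without aged rat 3 or young rat 1, Dpp7 without aged rat 4, young rat 5 or young rat 6, and Grn without aged rats 2, 3 or 6 or young rats 2, 5 or 6. Neu1 was kept without aged rat 1 or young rat 1, and Aga without aged rat 2, young rat 1 or young rat 4.

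In the signals as deposited, the members' difference was present in most aged rats rather than in 1. For each rat, the median over the 38 genes of the log2 signal minus the young mean was taken. In young rats it ran from -0.08 to 0.07, and in aged rats 1 to 6 it was 0.12, 0.07, 0.13, 0.15, 0.12 and 0.26. Aged rat 2 lay inside the young range and the other 5 above it, with aged rat 6 the highest. These values were not corrected for the median signal of each array. That signal was also highest in aged rat 6 (194), and in aged rats 3 and 5 (177 each) it exceeded every young array. It was lowest in young rat 4 (162), which had the highest young value (0.07). Centring arrays on their median therefore lowers aged rats 3, 5 and 6 and raises young rat 4 in this comparison. The 5 rats above the young range are a count for the signals as deposited. How many aged rats lie above that range with arrays centred on their median was not computed. Without aged rat 2 the median log2 fold change of the 38 genes was 0.15, without aged rat 6 it was 0.13, and without both it was 0.15, with 36 of 38 genes higher. Sample codes in the labels begin with digits that form a lower and a higher series, and what these mean is not given in the sources used here. Within the lower series (4 aged and 3 young rats) the median log2 fold change was 0.10. There 2 of the 38 genes, Hexa and Lamp2, were higher at an unadjusted p up to 0.05, beside 3.29% of all genes. Within the higher series (2 aged and 3 young rats) the median was 0.21. Of the 38 genes 2, Idua and Nagpa, were higher at that threshold there, beside 6.02% of all genes, so this count was no larger than for genes at large. The difference between the series was not tested.

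**Figure D3:**
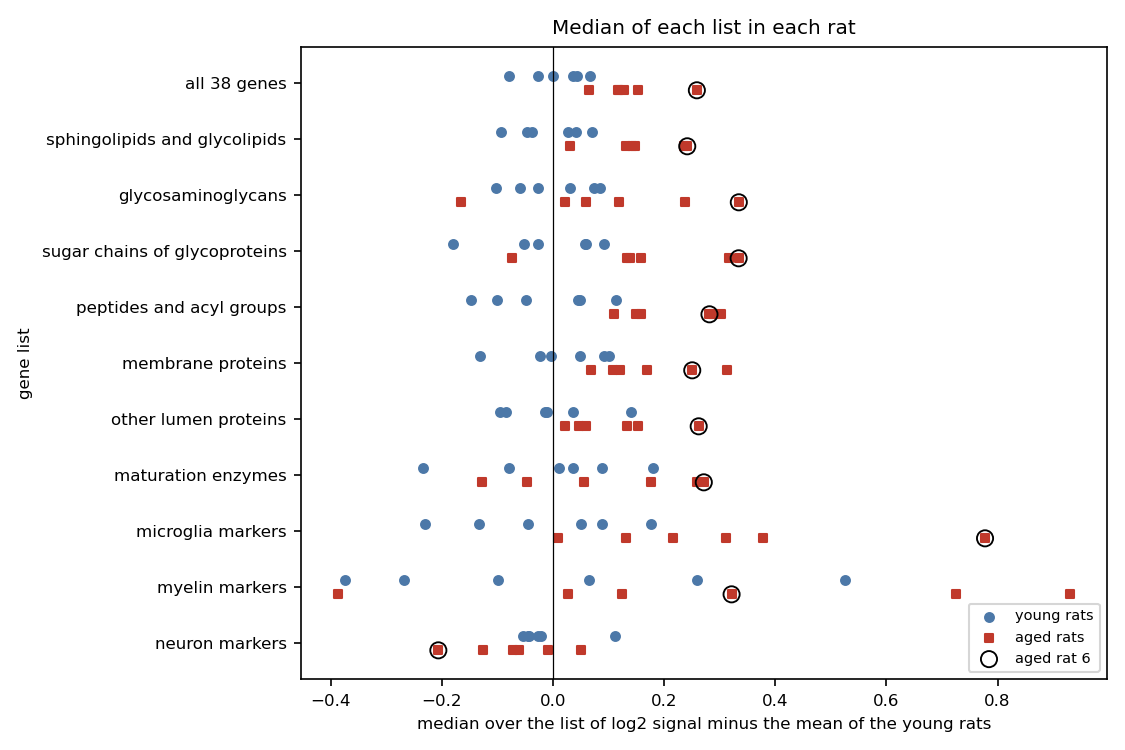
Median over each gene list of the log2 signal minus the mean of the young rats, with 1 point per rat (young, blue circles; aged, red squares; aged rat 6 ringed). Over all 38 genes 5 of 6 aged rats lie above every young rat, from 0.12 to 0.26, and aged rat 6 is also the highest rat for microglia markers, at 0.78. Arrays were not centred on their median signal, which was highest in aged rat 6 and above every young array in aged rats 3 and 5. The count of 5 is for the signals as deposited.

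Genes of the lysosome outside these 40 leaned the same way. Of 51 such genes listed (cathepsins, transporters, sorting receptors and transcription factors among them), 41 were tested. The mean was higher in aged rats for 30 of these (73.2%), beside 56.9% of all genes. Their median log2 fold change was 0.10, and over all genes it was 0.02. At an unadjusted p up to 0.05 from limma, 12 of the 41 (29.3%) were higher, beside 6.49% of all genes, and none lower, beside 2.62%. These counts were not repeated with arrays centred on their median. Npc2, a protein that takes part in the export of cholesterol from lysosomes, alone passed the adjustment (log2 fold change 0.63, SE 0.078, adjusted p = 0.0183). Next came Ctsz, a cathepsin, at 0.58, the lipid transporter Abca2 at 0.47 and Laptm5, a relative of Laptm4b found in blood-derived cells, at 0.51, with adjusted p of 0.215, 0.219 and 0.258 from limma. Tfeb, the factor named above and picked after its value was seen, had a log2 fold change of 0.15 (SE 0.097, adjusted p = 0.666).

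Markers of several cell types had a higher mean in aged rats beside the lysosomal genes, none past the adjustment. Of 20 microglia markers 16 were tested, and 15 of these (93.75%) were higher in aged rats, beside 56.9% of all genes. At an unadjusted p up to 0.05, 5 of the 16 (31.25%) were higher, beside 6.49% of all genes. The median log2 fold change of these markers was 0.31. Their summed signal ranged over 12970 to 16710 for young and 14110 to 22300 for aged animals, and the markers Ctss and Laptm5 were also on the list of other lysosomal genes. All 11 myelin markers tested had a higher mean, beside 56.9% of all genes, with a median of 0.25 and none at an unadjusted p up to 0.05. Their summed signal ranged over 34580 to 50940 for young and 35900 to 59430 for aged animals. The median of the myelin markers, as log2 signal minus the young mean, ran from -0.37 to 0.53 in young rats. In aged rats 1 to 6 it was 0.93, -0.39, 0.12, 0.73, 0.03 and 0.32. Aged rats 1 and 4 thus lay above every young rat, and aged rat 2 was the lowest of all 12. No relation between the lysosomal genes and the myelin markers was computed over the 12 rats. All 6 endothelial markers tested had a higher mean in aged rats (median 0.22), and 2 of them passed the unadjusted limma threshold. Of 8 blood markers tested 7 had a higher mean (median 0.46), and S100a8 and S100a9 passed. For both, every aged rat exceeded every young rat. The mean was higher for 4 of 5 choroid plexus markers (median 0.16) and 7 of 9 astrocyte markers (median 0.04), none passing. It was higher for 2 of 13 neuron markers (median -0.09) and 1 of 6 meningeal markers (median -0.16). Of the neuron markers 1 passed as lower, and of the meningeal markers 1 passed in each direction. A gene was tested only if above the cutoff on at least 3 arrays, so no tested marker could be below it on all arrays. The blood markers S100a8 (11.83) and Ms4a1 (11.26) and the choroid plexus marker Kl (8.924) had young means under the cutoff of 19.7. In aged rats their mean signals were 46.85, 20.58 and 15.08. The medians of their lists include these dim markers. The marker lists were not compared again with arrays centred on their median. The part of these cell types in the higher lysosomal signals was not tested.

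**Figure D4:**
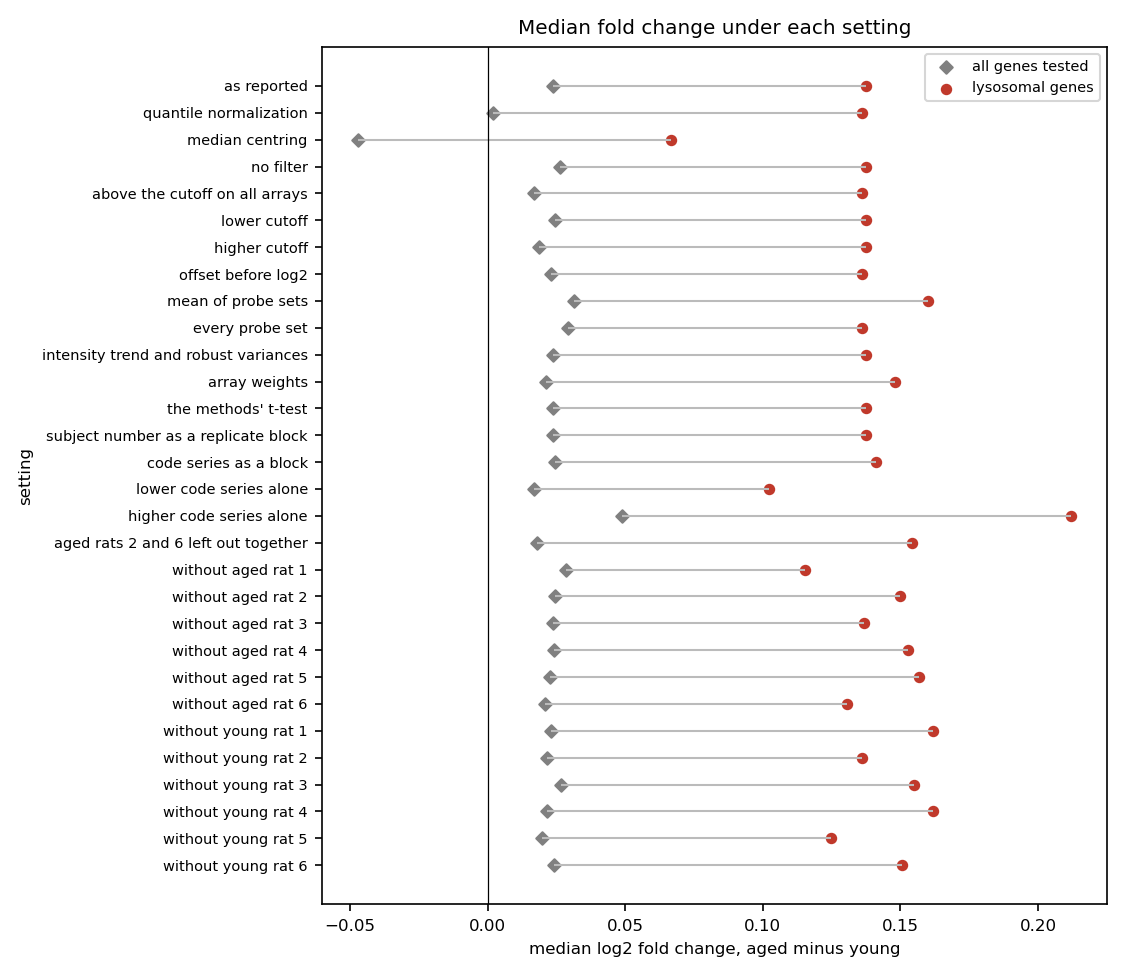
Median log2 fold change, aged minus young, of the lysosomal genes (red circles) and of all genes tested (grey diamonds) under the reported setting and each alternative. The lysosomal median lies above that of all genes in every setting drawn, from 0.07 with arrays centred on their median to 0.21 in the higher code series.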

How the data were processed

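RNA from 12 rats was hybridized to 1 array each (31099 probe sets). The deposited values are linear intensities, 1 for each probe set on each array. The methods name gcRMA, the submitters' processing notes MAS5, GCRMA and R 2.7.1, and their order is not given in the sources used here. Since the tests had been designed for gcRMA values on the log2 scale, log2 of the deposited intensity was taken here without further normalization. Of the probe sets, 20832 carried 1 gene symbol and were used, 436 carried several and 9831 none. The probe set with the highest mean stood for a gene. Genes above 4.3 (log2; a signal of 19.7) on at least 3 arrays were tested. The methods chose 4.3 on gcRMA values, so on the deposited intensities it need not separate the same genes.

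Groups were compared with limma 3.58.1 (lmFit, eBayes, two-sided) in R 4.3.3, with Benjamini-Hochberg adjustment over the 13253 genes. The fit was tested on simulated data. Per-rat values and exact permutation tests are given for the 10 members with the smallest p and the leading gene of each class. Of the other lysosomal genes the 4 with the smallest p are named. The members and lists were chosen with earlier results of these data known. The alternatives covered scaling, filters, probe set choice, variance model, blocks and left-out rats. Protein sequences, sleep and maze data were not analysed here. The number of arrays limits the precision. Plots used matplotlib 3.10.9 under Python 3.11.15.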

Additional observations from a re-analysis of the deposited data

Results flagged for a closer look

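In 4 of 76 groups of 6 rats (38 genes, 2 ages), 1 rat lay far from the other 5, and a test of this kind marks about 1 in 20 groups by chance. Gusb in aged rat 2 had a signal of 142.1, with the other aged rats between 211 and 256. Arsa in aged rat 3 was at 475.6, with the others between 656 and 771. Cd68 in aged rat 2 was at 8.6, with the others between 39.8 and 95.2. Arsb in aged rat 6 was at 1836.1, with the others between 2229 and 2494. In each case the distant rat was aged and had the lowest signal of its group.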

How the results depend on the processing

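The 12 members given per rat had a higher mean in aged rats under each of the 28 alternatives that gave them a value. Of the 26 others, 15 kept their sign and 11 changed it at least once. No member passed an adjusted p of 0.05 under any alternative. By the methods' t-test 13 members were higher at an unadjusted p up to 0.05 and none after Benjamini-Hochberg adjustment. Counts at an unadjusted p up to 0.05 moved with scaling and within the code series: with arrays centred on their median 4 members were higher, 1 was lower and the members' median log2 fold change was 0.067, and with quantile normalization 1 was lower. In the lower code series alone 2 of the 38 members were higher at that threshold, beside 3.29% of all genes. In the higher code series alone 2 were higher, beside 6.02% of all genes, with a median of 0.21. The cause was not tested. With 1 rat left out at a time, 0 to 1 members were lower (Scarb2, without aged rat 1 or young rat 1), 8 to 15 were higher, and the median ran from 0.12 to 0.16. Subject numbers were shared between the ages. Of the 6 aged rats, young rats 1, 3, 4 and 6 correlated most with the one of the same number (0.16, 0.12, 0.11 and 0.15). Young rats 2 and 5 did not (-0.04 and 0.098 with the same number). These values do not settle whether the numbers mark pairs, and the reported fit took the rats as unpaired. With the subject number as a replicate block, 11 members were higher at an unadjusted p up to 0.05 from limma and the median was 0.14. Signals near the cutoff limit Cd68 and the dim probe sets of Lamp1.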
